A study of Homo sapiens with 10 samples.

Results

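Molecular chaperone genes of the HSP70, HSP110, HSP90, HSP60/HSP10, small heat shock protein and DNAJ families were followed in HEK293T cells that overexpressed BRSK2, BRSK1 or hcRED, and in Mock samples. The set held every protein-coding gene whose symbol begins with HSPA, HSPB and a digit, HSPD, HSPE, HSPH, HSP90, DNAJA, DNAJB or DNAJC, together with BAG3. That gave 77 of the 58676 genes in the count tables. By family there were 13 HSP70, 3 HSP110, 3 HSP90, 3 HSP60/HSP10, 9 small heat shock protein, 4 DNAJA, 12 DNAJB and 29 DNAJC genes and BAG3. By class, 14 were listed as heat-inducible, 7 as inducible by stress of the endoplasmic reticulum (ER), 53 as constitutive and 3 as readthrough genes that join a chaperone gene to its neighbour.

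The 10 libraries were 3 from cells overexpressing the kinase BRSK2, 3 from cells overexpressing the related kinase BRSK1, 2 from cells overexpressing hcRED, a fluorescent protein that serves as an overexpression control, and 2 from Mock samples. BRSK2, BRSK1 and hcRED were overexpressed for 24 h, and the labels give no expressed gene or time for Mock. HEK293T is a human embryonic kidney cell line that carries the SV40 large T antigen, a viral protein that binds HSP70-type chaperones, and all 4 groups share this background. The labels do not say how the genes were introduced or whether the replicates came from separate cultures, so that the p-values measure the spread between these libraries, which may be technical.

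Chaperones bind unfolded or partly folded proteins. HSP70 proteins bind and release clients in cycles of ATP hydrolysis that J-domain proteins of the DNAJ families stimulate and that HSP110 proteins and BAG3 drive onward by releasing the nucleotide, while HSP90 acts later on clients such as kinases and receptors. In heat or proteotoxic stress the transcription factor HSF1 binds heat shock elements, arrays of inverted nGAAn units, and raises the inducible members. ER chaperones such as HSPA5 and HSP90B1 answer to the unfolded protein response instead, and constitutive members such as HSPA8 and HSP90AB1 are abundant without stress.

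Heat shock elements were looked up in the promoter windows of the members to describe how often each class holds them. Windows of 300 bases, 250 before to 50 after the annotated start, came from RefSeq (GRCh38.p14), and 67 of the 77 members had one. Of these windows, 40 had a start within 100 bases of the start of the gene's transcript in GENCODE, and the window nearest to it was taken. The letters GAANNTTC or TTCNNGAA, 2 inverted units, each its own reverse complement, stood in 10 of 14 heat-inducible, 0 of 7 ER-stress-inducible and 8 of 44 constitutive members, and in 13.51% of 34943 windows of all genes. The longer forms with 3 units, GAANNTTC followed by NNGAA and TTCNNGAA followed by NNTTC, are each other's reverse complement and contain the shorter letters. They stood in 3 of the 14 heat-inducible, 0 of the 7 ER-stress-inducible and 2 of the 44 constitutive members, and in 0.49% of all windows. A match describes letters only. The windows of 5 members whose levels are described further on are printed 5′ to 3′ on the gene's own strand, in lower case with every match in capitals. They are HSPA6, a strictly stress-inducible HSP70 (chr1:161524290-161524589, plus strand), DNAJA1 (chr9:33025023-33025322, plus strand) and DNAJB1 (chr19:14518348-14518647, minus strand), both heat-inducible J-domain partners, the constitutive HSPA8 (chr11:123062087-123062386, minus strand) and the constitutive DNAJB2 (chr2:219279116-219279415, plus strand), which has no match.
HSPA6: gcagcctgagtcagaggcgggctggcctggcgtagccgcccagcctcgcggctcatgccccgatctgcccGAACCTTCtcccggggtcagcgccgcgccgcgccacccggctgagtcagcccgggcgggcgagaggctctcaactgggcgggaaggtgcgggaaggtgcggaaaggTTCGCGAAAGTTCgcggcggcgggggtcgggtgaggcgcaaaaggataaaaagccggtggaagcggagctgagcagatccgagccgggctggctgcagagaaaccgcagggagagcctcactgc
DNAJA1: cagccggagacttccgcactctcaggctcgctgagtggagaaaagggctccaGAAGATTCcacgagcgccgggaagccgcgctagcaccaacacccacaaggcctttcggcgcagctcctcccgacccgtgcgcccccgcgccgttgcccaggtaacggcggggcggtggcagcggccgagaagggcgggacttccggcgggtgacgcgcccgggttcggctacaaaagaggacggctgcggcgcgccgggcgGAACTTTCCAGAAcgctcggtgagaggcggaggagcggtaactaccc
DNAJB1: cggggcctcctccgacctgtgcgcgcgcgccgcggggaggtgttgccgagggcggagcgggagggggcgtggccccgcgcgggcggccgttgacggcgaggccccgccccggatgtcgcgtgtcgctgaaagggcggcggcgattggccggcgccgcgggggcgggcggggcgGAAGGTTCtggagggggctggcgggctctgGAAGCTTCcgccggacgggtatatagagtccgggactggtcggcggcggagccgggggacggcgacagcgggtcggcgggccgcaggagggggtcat
HSPA8: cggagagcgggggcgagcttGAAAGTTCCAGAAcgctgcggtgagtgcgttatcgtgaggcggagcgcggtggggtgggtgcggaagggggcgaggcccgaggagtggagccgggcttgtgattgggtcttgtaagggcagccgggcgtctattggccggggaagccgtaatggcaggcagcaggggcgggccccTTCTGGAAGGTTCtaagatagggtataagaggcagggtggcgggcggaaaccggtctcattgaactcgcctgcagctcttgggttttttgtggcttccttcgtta
DNAJB2: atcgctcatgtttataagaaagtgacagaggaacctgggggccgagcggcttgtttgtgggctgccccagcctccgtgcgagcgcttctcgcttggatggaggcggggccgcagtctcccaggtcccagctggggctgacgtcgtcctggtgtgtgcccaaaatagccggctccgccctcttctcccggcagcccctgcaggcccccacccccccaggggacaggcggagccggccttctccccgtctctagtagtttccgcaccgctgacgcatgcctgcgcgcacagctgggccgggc
The capitals mark 1 long array and 1 separate match in HSPA6, 1 of each in DNAJA1, 2 short matches in DNAJB1 and 2 long arrays in HSPA8.

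The libraries held 16516116 to 24304302 counts. BRSK2 made up 69928 to 103644 CPM (counts scaled to a common library total) in the BRSK2 libraries, against 73.5 to 99.1 CPM in the others, and BRSK1 made up 47151 to 69608 CPM in the BRSK1 libraries, against 10.3 to 28.8 CPM in the others, so that both labels fitted the data. The 8 marker genes of HEK cells were all present, with summed levels of 511 to 533 CPM in BRSK2, 508 to 530.3 in BRSK1, 474 to 475 in hcRED and 535 to 546 in Mock libraries. Of 18 markers of blood, liver, muscle, fibroblasts, endothelium and glia, PTPRC was at 0 in every library, and the sum was 34.6 to 44.0 CPM in BRSK2, 32.8 to 44.3 in BRSK1, 42.2 to 44.0 in hcRED and 44.1 to 47.8 in Mock libraries, most of it COL1A1. Transcripts encoded by mitochondrial DNA took 5.29% to 6.11% of counts in BRSK2, 4.17% to 5.73% in BRSK1, 5.83% to 6.48% in hcRED and 7.17% to 7.88% in Mock libraries, and their part in the results was not tested. In these bulk samples a change in which cells were collected and a change in RNA per cell cannot be told apart.

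The chaperone genes together made up 1.25% to 1.36% of all counts in BRSK2, 1.36% to 1.501% in BRSK1, 1.47% to 1.49% in hcRED and 1.43% to 1.44% in Mock libraries, which include the overexpressed kinase in the denominator. On a scale normalised with TMM factors (trimmed mean of M values, which discount a few very abundant genes), their sum was 13155 to 14156 CPM in BRSK2, 13694 to 14699 in BRSK1, 13996 to 14287 in hcRED and 14108 to 14316 in Mock libraries, and these ranges overlap. Per length, in TPM (counts divided by gene length and scaled to a common total), the most abundant members over the 10 libraries were the cytosolic HSP90 genes HSP90AB1 (mean 2507 TPM) and HSP90AA1 (1910), the mitochondrial HSPD1 (1097), the constitutive HSPA8 (1035), the heat-inducible HSPA1B (935) and the ER chaperone HSPA5 (651). HSPA6 averaged 3.62 TPM and ranged over the libraries between 0.214 and 10.3 TPM. Low counts kept 11 members out of the test. Among them DNAJC15 reached 10 counts in its highest library (0.474 CPM), DNAJC5G 8 (0.509 CPM), DNAJB7 6 (0.249 CPM), HSPB3 and HSPB7 3 each (0.125 and 0.148 CPM) and DNAJC5B 1 (0.064 CPM). DNAJB8, HSPB2 and the 3 readthrough genes were at 0 counts in every library.

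Of the 66 members tested, 10 changed in BRSK2 libraries (3 higher, 7 lower), 15.2% of them, where 7.82% of all 16936 genes tested did (4.77% higher, 3.05% lower). In BRSK1 libraries 10 changed (5 higher, 5 lower), again 15.2%, where 6.43% of all genes did (3.77% higher, 2.66% lower). The reference for each kinase was the average of the group levels of hcRED and Mock, tested by edgeR's quasi-likelihood test at a Benjamini-Hochberg adjusted p under 0.05 over all genes tested, and fold changes are on the log2 scale with their standard error (SE). Among the members called, all fold changes but those of HSPA6 and HSPA2 were under 0.5 in size on the log2 scale. Because both comparisons use the same 4 control libraries, their results are set side by side and their likeness was not measured. DNAJB2 and DNAJB5 were higher and HSPA8, HSPA4 and DNAJA1 lower with either kinase. DNAJC1 was higher and DNAJB1, HSPH1, HSPA2 and DNAJC8 lower in BRSK2 libraries, and HSPA6, HSP90B1 and HSPA13 were higher and DNAJC5 and the HSPA14 entry ENSG00000284024 lower in BRSK1 libraries. Between the kinases themselves, HSPA6 and DNAJB1 were lower in BRSK2 than in BRSK1 libraries and no other member passed, where 0.348% of all genes did (0.23% higher, 0.118% lower).

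**Figure D1:**
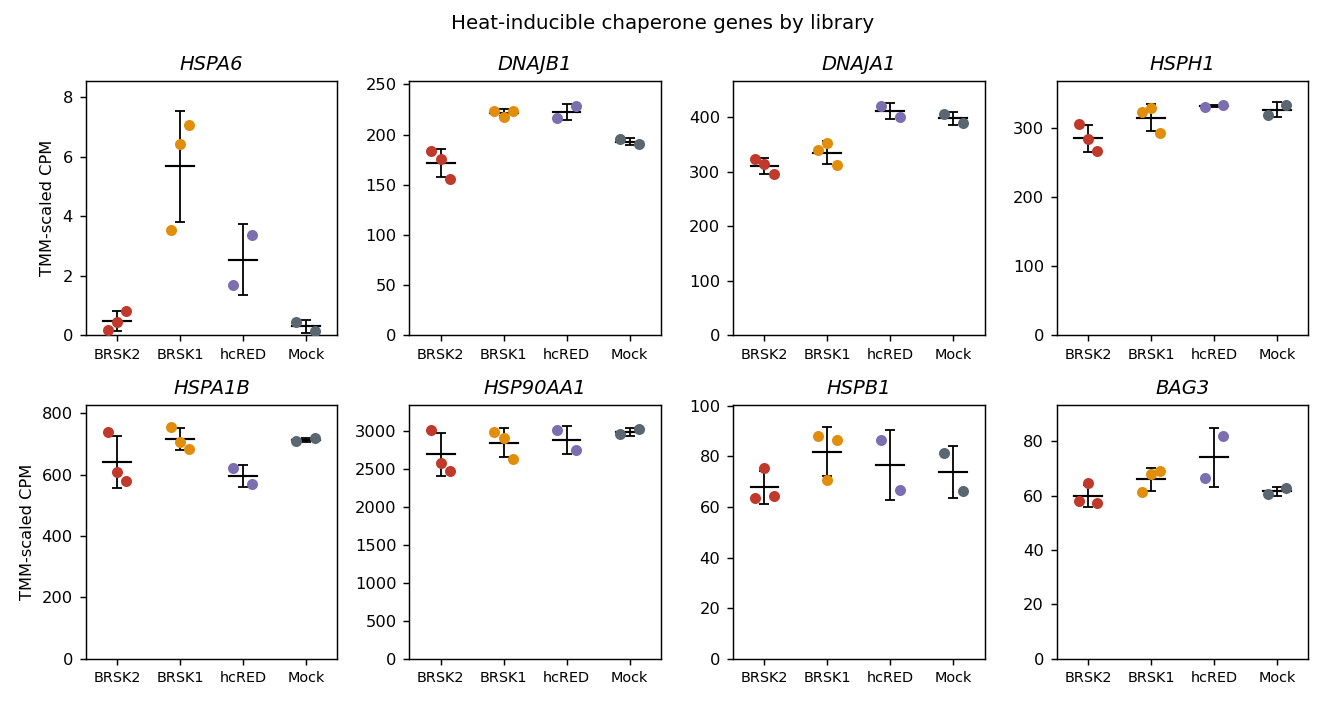
TMM-scaled CPM of 8 heat-inducible chaperone genes in each library, by group (points), with the group mean (horizontal line) and SD (bars). HSPA6 averaged 5.68 CPM in BRSK1 libraries against 2.54 in hcRED and 0.301 in Mock libraries, and the 3 BRSK2 libraries lie below the other 7 for DNAJB1.

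HSPA6 had the largest change of any member. It lies on chromosome 1 (161524540 to 161526910, plus strand, hg38) and is nearly silent in unstressed cells. Its raw counts were 3, 9 and 13 in BRSK2, 75, 145 and 170 in BRSK1, 36 and 69 in hcRED and 9 and 3 in Mock libraries. In TMM-scaled CPM these were 0.164, 0.443 and 0.827 in BRSK2, 3.55, 6.42 and 7.06 in BRSK1, 1.70 and 3.38 in hcRED and 0.454 and 0.149 in Mock libraries. Every BRSK1 library stood above every other library, the hcRED libraries lay between, and the BRSK2 and Mock libraries overlapped at the bottom. HSPA6 was higher in BRSK1 libraries than in controls by 2.69 ± 0.37 (SE), a fold of 6.46 (adjusted p = 0.000751), and lower in BRSK2 than in BRSK1 libraries, at -3.60 ± 0.43 (adjusted p = 0.000944), a call that held under every alternative that gave an adjusted p (DESeq2 gave none). BRSK2 libraries against controls gave -0.91 ± 0.55 (adjusted p = 0.355).

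The controls themselves differed for HSPA6, so that the value depends on which is used. hcRED against Mock gave 3.05 ± 0.60, which did not pass (adjusted p = 0.109), although the libraries did not overlap. Against hcRED alone, BRSK1 libraries gave 1.17 (adjusted p = 0.165) and BRSK2 libraries -2.43 (adjusted p = 0.0126). Against Mock alone, BRSK1 libraries gave 4.22 (adjusted p = 0.000636) and BRSK2 libraries 0.62 (adjusted p = 0.692). The BRSK1 call was thus lost against hcRED alone, and the BRSK2 libraries passed as lower against hcRED alone. hcRED against Mock passed without BRSK1 replicate 1, BRSK2 replicate 1 or hcRED replicate 1 (adjusted p = 0.0238, 0.0241 and 0.0264) and with no filter on low counts (adjusted p = 8.28e-08). The near-identical pseudogene HSPA7 had 0 to 5 counts per library.

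HSPA1A and HSPA1B, the main heat-inducible HSP70 genes, are almost identical in sequence and lie beside each other on chromosome 6 (31815464 to 31817946 and 31827735 to 31830255, plus strand). HSPA1A received 0.021% to 0.188% of the counts of the pair, so the split between them is uncertain and their sum is the safer value. The sum was 738, 608 and 578 CPM in BRSK2, 757, 707 and 685 in BRSK1, 621 and 569.7 in hcRED and 709 and 718 in Mock libraries. The ranges of the BRSK2, BRSK1 and Mock libraries overlap, and the hcRED libraries overlap BRSK2 and lie below BRSK1 and Mock. HSPA1B gave -0.02 ± 0.07 in BRSK2 libraries (adjusted p = 0.892) and 0.14 ± 0.07 in BRSK1 libraries (adjusted p = 0.27), and HSPA1A, at 0.149 to 1.33 CPM, gave 0.39 ± 0.47 and 0.93 ± 0.44 (adjusted p = 0.672 and 0.212). HSPA1B, which received nearly all counts of the pair, passed in no comparison of the 4.

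DNAJB1, the J-domain protein that works with inducible HSP70, lies on chromosome 19 (14514770 to 14529770, minus strand). It had 184, 175 and 156 CPM in BRSK2, 223, 218 and 224 in BRSK1, 217 and 229 in hcRED and 195 and 191 in Mock libraries. The 3 BRSK2 libraries lay below all others, Mock came next, and BRSK1 and hcRED overlapped. DNAJB1 was lower in BRSK2 libraries than in controls, at -0.27 ± 0.06 (adjusted p = 0.00625), and than in BRSK1 libraries, at -0.37 ± 0.06 (adjusted p = 0.0121), while BRSK1 libraries against controls gave 0.10 ± 0.06 (adjusted p = 0.347). Against Mock alone the BRSK2 value was -0.17 (adjusted p = 0.165), and without BRSK2 replicate 3 the call against controls had an adjusted p of 0.1; the call between the kinases was lost without BRSK2 replicate 3, BRSK1 replicate 1 or BRSK1 replicate 3 (adjusted p = 0.111, 0.0598 and 0.0684). DNAJB1 overlaps TECR on the opposite strand, and without the strand setting their reads cannot be told apart; TECR gave -0.23 ± 0.07 in BRSK2 and -0.28 ± 0.07 in BRSK1 libraries against controls, and 0.05 ± 0.08 between BRSK2 and BRSK1.

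DNAJA1, a J-domain partner of HSPA8 and of inducible HSP70, lies on chromosome 9 (33025211 to 33039907, plus strand). It had 322, 314 and 295 CPM in BRSK2, 339, 353 and 312 in BRSK1, 421 and 401 in hcRED and 407 and 389 in Mock libraries. All 6 kinase libraries lay below all 4 controls, and those of the kinases overlapped. DNAJA1 fell in BRSK2 libraries by 0.38 ± 0.06 (adjusted p = 0.000326), a call kept under every alternative tried, and in BRSK1 libraries by 0.27 ± 0.06 (adjusted p = 0.00836). Without BRSK1 replicate 3 or hcRED replicate 1 the BRSK1 call was lost (adjusted p = 0.0961 and 0.0503). BRSK2 against BRSK1 gave -0.11 ± 0.06 (adjusted p = 0.491).

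HSPH1, an HSP110 protein that exchanges the nucleotide of HSP70, lies on chromosome 13 (31134974 to 31162388, minus strand). It had 306, 284 and 267 CPM in BRSK2, 324, 330.3 and 293 in BRSK1, 332 and 334 in hcRED and 319 and 335 in Mock libraries. The BRSK2 libraries lay below the controls and the BRSK1 libraries overlapped both. HSPH1 fell in BRSK2 libraries by 0.21 ± 0.06 (adjusted p = 0.039), and 5 of the fits that left out 1 library lost this call (adjusted p from 0.0977 to 0.255): those without BRSK2 replicate 2 or 3, hcRED replicate 1 or 3, or Mock replicate 3. The BRSK2 call was also lost against either control alone (adjusted p = 0.0953 with hcRED and 0.115 with Mock). BRSK1 libraries gave -0.06 ± 0.06 (adjusted p = 0.586).

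The other heat-inducible members passed in none of the 4 comparisons, though alternatives called some of them. HSP90AA1, the inducible cytosolic HSP90, had 3025, 2581 and 2484 CPM in BRSK2, 2998, 2920.3 and 2634 in BRSK1, 3019 and 2762 in hcRED and 2961 and 3027 in Mock libraries. HSPB1, the best known small heat shock protein, had 63.7, 75.4 and 64.2 CPM in BRSK2, 88.1, 70.8 and 86.6 in BRSK1, 86.3 and 66.9 in hcRED and 81.1 and 66.4 in Mock libraries. BAG3, which links HSP70 to small heat shock proteins and selective autophagy, had 57.9, 64.5 and 57.2 CPM in BRSK2, 61.3, 67.9 and 69.2 in BRSK1, 66.4 and 81.9 in hcRED and 60.5 and 62.8 in Mock libraries. For each of these 3 genes the kinase libraries overlapped the controls. Their values in BRSK2 libraries were -0.13 ± 0.07 for HSP90AA1, -0.15 ± 0.11 for HSPB1 and -0.17 ± 0.08 for BAG3 (adjusted p = 0.326, 0.46 and 0.165), and in BRSK1 libraries -0.05 ± 0.07, 0.12 ± 0.11 and -0.03 ± 0.07 (adjusted p = 0.773, 0.556 and 0.849). HSP90AA1 was called lower in BRSK2 libraries without BRSK2 replicate 1 (-0.22, adjusted p = 0.0278), HSP90AA1 and BAG3 with library totals alone (adjusted p = 0.0439 and 0.0133), and HSPB1 was called lower in BRSK2 than in BRSK1 libraries with no filter on low counts (-0.28, adjusted p = 0.0408). Among the rest, HSPA4L, an HSP110 protein, gave -0.21 ± 0.07 in BRSK2 libraries (adjusted p = 0.0708) and -0.04 ± 0.07 in BRSK1 libraries (adjusted p = 0.769). It was called lower in BRSK2 libraries with no filter on low counts (adjusted p = 0.0424), with library totals alone (adjusted p = 0.00537) and without BRSK2 replicate 1 or Mock replicate 2 (adjusted p = 0.00598 and 0.0307). The J-domain gene DNAJB4 gave -0.15 ± 0.11 and -0.06 ± 0.11. HSPB8, the small heat shock partner of BAG3, stood at 1.16 to 3.74 CPM and gave 0.34 ± 0.28 and 0.50 ± 0.27. The mitochondrial chaperonin HSPD1 gave 0.03 ± 0.06 and 0.09 ± 0.06. Its co-chaperonin HSPE1 gave 0.21 ± 0.42 and 0.04 ± 0.41. HSPE1 had 185 to 519 counts per library, and the HSPE1 pseudogenes together had 0 to 14. DNAJB4, with 249 to 455 counts, had a smaller SE of 0.11. HSPE1 levels were spread within groups. In BRSK2 and BRSK1 libraries HSPE1 averaged 17.5 ± 3.19 and 15.6 ± 6.43 CPM (SD). In hcRED and Mock libraries it averaged 14.1 ± 7.15 and 16.4 ± 7.68 CPM. The cause of this spread was not tested.

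**Figure D2:**
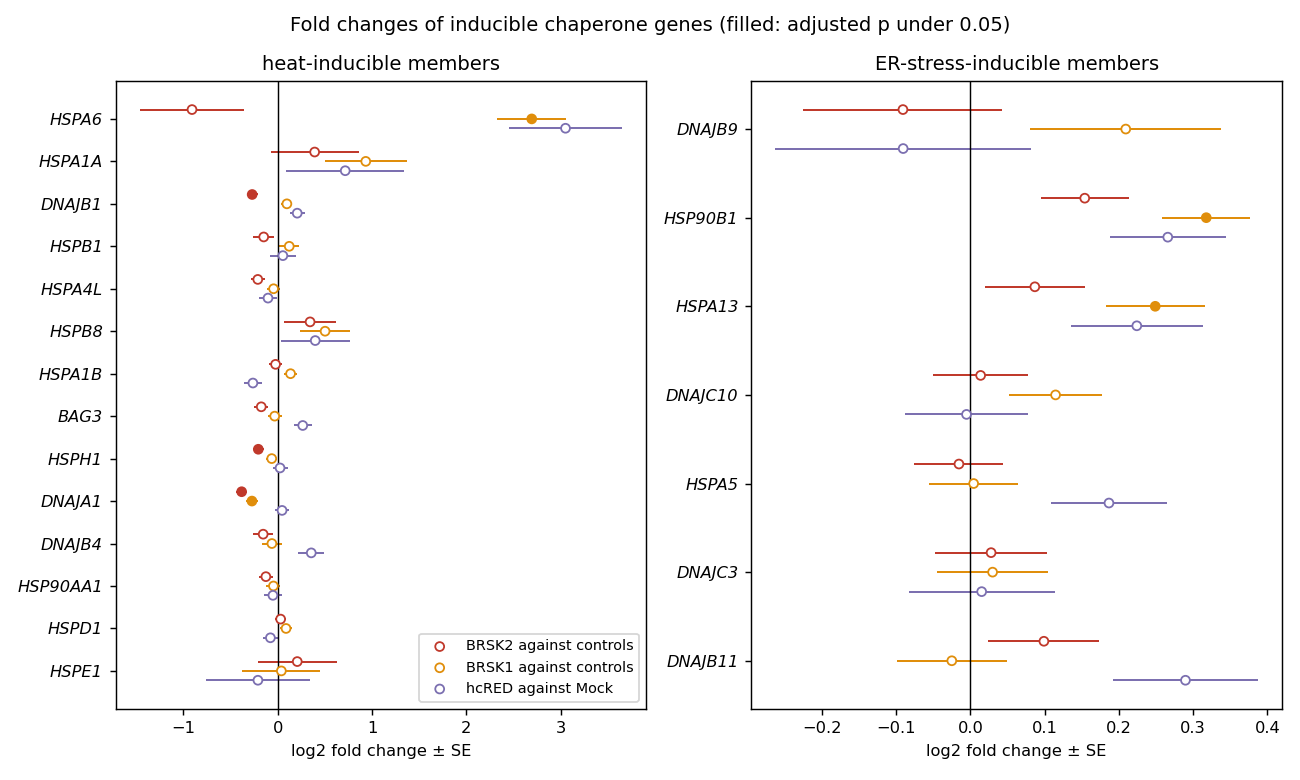
Log2 fold change ± SE of the 14 heat-inducible (left) and 7 ER-stress-inducible (right) members in BRSK2 libraries against controls, BRSK1 libraries against controls and hcRED against Mock; filled points have an adjusted p under 0.05. HSPA6 reaches 2.69 in BRSK1 libraries and 3.05 in hcRED against Mock, while DNAJB1, HSPH1 and DNAJA1 are filled below 0 in BRSK2 libraries.

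As a class, 0 of the 14 heat-inducible members rose and 3 fell in BRSK2 libraries, against 4.77% of all genes higher and 3.05% lower, with a median of -0.15 against 0.00 for all genes tested. In BRSK1 libraries 1 rose and 1 fell, against 3.77% and 2.66% of all genes, with a median of 0.06 against 0.00. Between BRSK2 and BRSK1, 0 rose and 2 fell, against 0.23% and 0.118% of all genes, 13 of 14 values were negative and the median was -0.15 against 0.00. hcRED against Mock had 0 calls by edgeR's quasi-likelihood test (5 at an unadjusted p under 0.05, 0 by DESeq2) and a median of 0.05. Of all genes 0.0295% passed edgeR's test in that comparison. Scaling by library totals alone moved the median of all genes in BRSK2 libraries to -0.10 and that of the heat-inducible members to -0.26, and 11 in place of 10 of the 14 values were then negative. The counts and medians describe the list and were given no test, since the members were chosen with earlier results known.

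**Figure D3:**
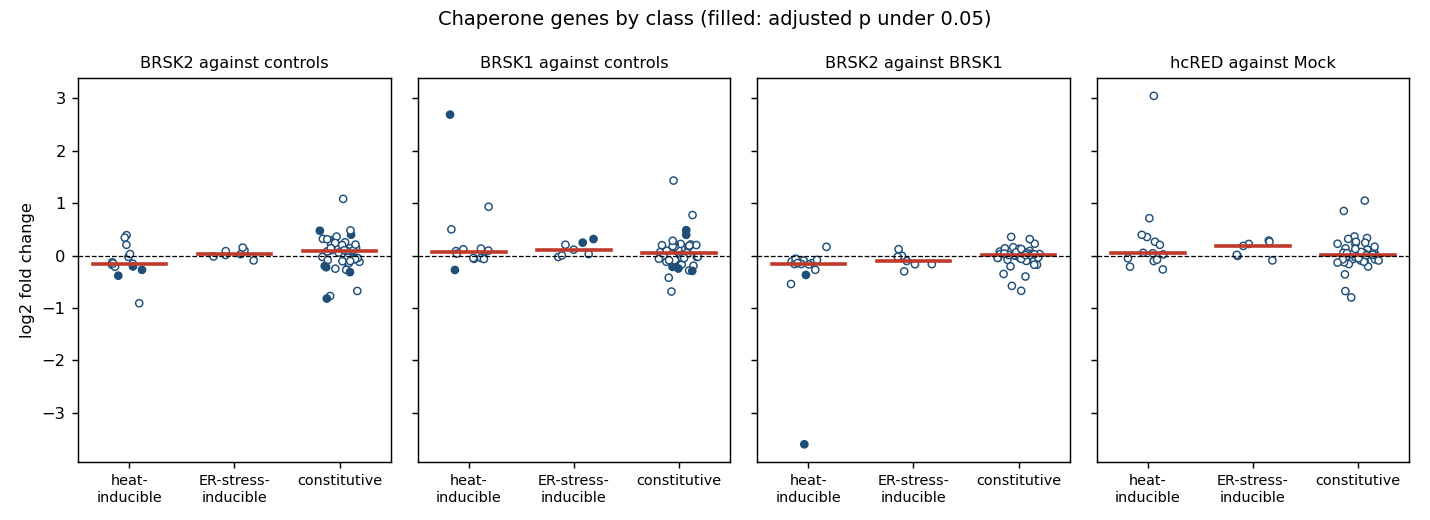
Log2 fold change of each tested member by class in the 4 comparisons, with the class median (red line) and filled points for an adjusted p under 0.05. The heat-inducible median lies at -0.15 in BRSK2 libraries against controls and against BRSK1, and the single far point is HSPA6 at 2.69 in BRSK1 libraries, at -3.60 between BRSK2 and BRSK1 and at 3.05 in hcRED against Mock.

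Per library, the mean log2 CPM of the heat-inducible members less that of the constitutive members was 1.099 ± 0.05 in BRSK2, 1.46 ± 0.08 in BRSK1, 1.38 ± 0.01 in hcRED and 1.11 ± 0.15 in Mock libraries (SD, n = 3, 3, 2 and 2). All 3 BRSK1 libraries (1.41 to 1.55) stood above the hcRED pair (1.38 and 1.39), and the BRSK2 libraries (1.05 to 1.16) lay between the Mock libraries (1.00 and 1.21). Without HSPA6 the means were 1.62 ± 0.07 in BRSK2, 1.75 ± 0.07 in BRSK1, 1.75 ± 0.06 in hcRED and 1.66 ± 0.10 in Mock libraries. Every BRSK2 library (1.54 to 1.68) then lay below every BRSK1 (1.69 to 1.83) and hcRED library (1.71 and 1.80), and the Mock libraries (1.59 and 1.73) overlapped all 3 groups. The nearest BRSK2 and BRSK1 libraries, at 1.68 and 1.685, were less far apart than the SD of either group. HSPA1A, with only 3 to 30 counts per library, still weighed as much as any other member in these means.

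**Figure D4:**
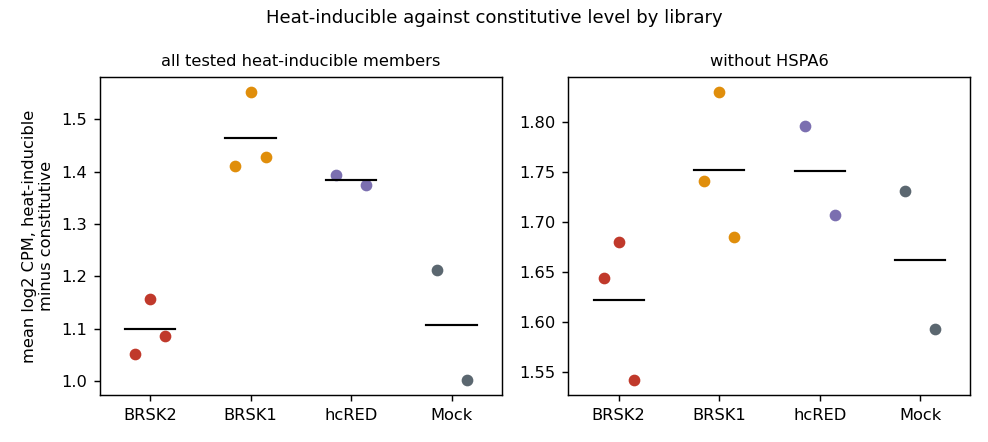
Mean log2 CPM of tested heat-inducible members minus that of tested constitutive members in each library, with all 14 heat-inducible members (left) and without HSPA6 (right); lines are group means and the vertical axes do not start at 0. On the left BRSK2 and Mock average 1.099 and 1.107 and BRSK1 and hcRED 1.46 and 1.38. On the right the BRSK2 libraries lie below those of BRSK1, by little for the nearest (1.68 and 1.685), and below those of hcRED, and Mock overlaps all 3.

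The ER-stress-inducible class had 0 calls in BRSK2 libraries by edgeR's quasi-likelihood test (1 at an unadjusted p under 0.05, 0 by DESeq2). In BRSK1 libraries the class had 2 calls, both higher. Of all genes 7.82% and 6.43% were called with BRSK2 and BRSK1. The class medians were 0.03 and 0.12 against 0.00 for all genes. With library totals alone the BRSK2 class median was -0.08, against -0.10 for all genes. HSP90B1, the HSP90 of the ER, lies on chromosome 12 (103930107 to 103953645, plus strand) and had 523, 559.7 and 589 CPM in BRSK2, 610.1, 655 and 607 in BRSK1, 529.5 and 568 in hcRED and 454 and 459 in Mock libraries. The BRSK1 libraries lay above all others, BRSK2 and hcRED overlapped, and Mock was lowest. HSP90B1 rose in BRSK1 libraries by 0.32 ± 0.06 (adjusted p = 0.00328), and this call held in each of the 10 fits that left out 1 library but not against hcRED alone, where it was 0.18 (adjusted p = 0.224). BRSK2 libraries gave 0.15 ± 0.06 (adjusted p = 0.114), with 0.29 against Mock alone (adjusted p = 0.0212), 0.02 against hcRED alone (adjusted p = 0.917) and 0.20 without BRSK2 replicate 1 (adjusted p = 0.023). BRSK2 against BRSK1 gave -0.16 ± 0.06 (adjusted p = 0.284). C12orf73 overlaps HSP90B1 on the opposite strand, with a mean of 251 counts.

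HSPA13, an HSP70-type protein of microsomes, lies on chromosome 21 (14371115 to 14383484, minus strand). It had 93.6, 99.2 and 113 CPM in BRSK2, 105, 115 and 121 in BRSK1, 100.03 and 107 in hcRED and 86.4 and 90.8 in Mock libraries. The BRSK1 and hcRED libraries overlapped and the Mock libraries were lowest. HSPA13 was higher in BRSK1 libraries than in controls by 0.25 ± 0.07 (adjusted p = 0.0283), a call lost against hcRED alone (0.14, adjusted p = 0.456), with library totals alone (adjusted p = 0.0543), and without BRSK1 replicate 2 or 3, hcRED replicate 1 or Mock replicate 2 (adjusted p from 0.0703 to 0.187). HSPA5 (BiP), the ER HSP70 and a main target of the unfolded protein response, had 675, 740.3 and 727 CPM in BRSK2, 717, 730.2 and 724 in BRSK1, 724 and 816 in hcRED and 672 and 681 in Mock libraries. HSPA5 gave -0.02 ± 0.06 in BRSK2 and 0.00 ± 0.06 in BRSK1 libraries (adjusted p = 0.917 and 0.979). The ER J-domain genes DNAJB9, DNAJB11, DNAJC3 and DNAJC10 gave -0.09 ± 0.13, 0.10 ± 0.07, 0.03 ± 0.08 and 0.01 ± 0.06 in BRSK2 libraries and 0.21 ± 0.13, -0.03 ± 0.07, 0.03 ± 0.07 and 0.11 ± 0.06 in BRSK1 libraries, none past the threshold.

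Of the 45 constitutive members tested, 3 rose and 4 fell in BRSK2 libraries (median 0.08), 15.6% of them, where 7.82% of all genes changed, and 2 rose and 4 fell in BRSK1 libraries (median 0.06), 13.3% of them, where 6.43% of all genes changed. The all-gene median was 0.00 in each comparison. By edgeR's quasi-likelihood test there were 0 calls between BRSK2 and BRSK1 (median 0.01), where 0.348% of all genes passed. Between hcRED and Mock there were also 0 (median 0.02), where 0.0295% of all genes passed. At an unadjusted p under 0.05 these last counts were 2 and 4, and by DESeq2 0 each. Library totals alone turned the BRSK2 median to -0.02 and the median between the kinases to -0.06. Under that scaling the medians of all genes were -0.10 and -0.07. HSPA8 (HSC70), the constitutive cytosolic HSP70, lies on chromosome 11 (123057489 to 123063230, minus strand) and had 1335, 1282 and 1194 CPM in BRSK2, 1465, 1350.1 and 1272 in BRSK1, 1630.1 and 1551 in hcRED and 1600.5 and 1539 in Mock libraries. All 6 kinase libraries lay below all 4 controls. HSPA8 fell in BRSK2 libraries by 0.31 ± 0.07 (adjusted p = 0.00417), lost without BRSK2 replicate 3 (adjusted p = 0.0685). It fell in BRSK1 libraries by 0.21 ± 0.07 (adjusted p = 0.0493), and 8 of the 10 fits that left out 1 library lost that call (adjusted p from 0.0599 to 0.269), the exceptions being those without BRSK1 replicate 1 and BRSK2 replicate 1. Either control alone also lost the BRSK1 call of HSPA8 (adjusted p = 0.169 with hcRED and 0.109 with Mock). The promoter window printed above holds 2 of the longer heat shock letters in HSPA8, 1 in DNAJA1 and 1 in HSPA6. HSP90AA1 and DNAJB6, called in none of the 4 comparisons, also hold 1 each in windows not printed. A link between these letters and the levels was not tested.

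HSPA4, an HSP110 protein, lies on chromosome 5 (133051962 to 133106449, plus strand) and had 434, 366 and 361 CPM in BRSK2, 397, 389 and 355 in BRSK1, 434 and 428 in hcRED and 442 and 503 in Mock libraries. The BRSK1 libraries lay below the controls, and BRSK2 replicate 1 lay among them. HSPA4 fell by 0.22 ± 0.07 in BRSK2 libraries (adjusted p = 0.0475) and by 0.25 ± 0.07 in BRSK1 libraries (adjusted p = 0.0332). Against hcRED alone both calls were lost (-0.16, adjusted p = 0.324, and -0.18, adjusted p = 0.307). Against Mock alone both were kept (adjusted p = 0.0393 and 0.0233). Leaving out 1 library lost the BRSK2 call in 8 fits (adjusted p from 0.0539 to 0.275; all but those without BRSK2 replicate 1 and Mock replicate 2) and the BRSK1 call in 5 (adjusted p from 0.0733 to 0.209; those without BRSK1 replicate 2 or 3, hcRED replicate 1 or 3, or Mock replicate 3).

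HSPA2, an HSP70 best known from the testis, lies on chromosome 14 (64535905 to 64546173, plus strand). It had 4.82, 4.57 and 2.99 CPM in BRSK2, 5.92, 5.31 and 5.23 in BRSK1, 6.50 and 8.47 in hcRED and 8.53 and 5.89 in Mock libraries. The BRSK2 libraries lay below all others, and the BRSK1 libraries overlapped the controls. HSPA2 fell in BRSK2 libraries by 0.82 ± 0.18 (adjusted p = 0.00676; 0.0825 without BRSK2 replicate 3), and BRSK1 libraries gave -0.42 ± 0.17 (adjusted p = 0.148).

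DNAJB2, a J-domain protein enriched in neurons that carries ubiquitin-interacting motifs, lies on chromosome 2 (219279267 to 219286900, plus strand). It had 41.3, 46.0 and 45.9 CPM in BRSK2, 43.4, 49.7 and 48.3 in BRSK1, 33.9 and 38.9 in hcRED and 32.2 and 29.95 in Mock libraries. All 6 kinase libraries stood above all 4 controls, and those of the kinases overlapped. DNAJB2 rose by 0.40 ± 0.08 in BRSK2 libraries (adjusted p = 0.00236) and by 0.49 ± 0.08 in BRSK1 libraries (adjusted p = 0.000708). Both calls held in each fit that left out 1 library, and both were lost against hcRED alone (0.29, adjusted p = 0.0891, and 0.37, adjusted p = 0.0522).

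DNAJB5, a J-domain protein of the same subfamily, lies on chromosome 9 (34989641 to 34998900, plus strand). It had 11.6, 13.7 and 15.4 CPM in BRSK2, 12.2, 13.6 and 12.6 in BRSK1, 9.52 and 10.1 in hcRED and 9.99 and 9.31 in Mock libraries. All kinase libraries stood above the controls. DNAJB5 was higher by 0.48 ± 0.12 in BRSK2 libraries (adjusted p = 0.0136) and by 0.40 ± 0.12 in BRSK1 libraries (adjusted p = 0.0398). The BRSK2 call was lost without BRSK2 replicate 2 or 3 or hcRED replicate 1 (adjusted p from 0.0558 to 0.136), and the BRSK1 call in 7 fits, each of those without a BRSK1, hcRED or Mock library (adjusted p from 0.0601 to 0.147). DESeq2 (adjusted p = 0.0509), library totals alone (adjusted p = 0.0568) and either control alone (adjusted p = 0.193 with hcRED and 0.0794 with Mock) also lost the BRSK1 call, and hcRED alone that of BRSK2 (adjusted p = 0.067).

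**Figure D5:**
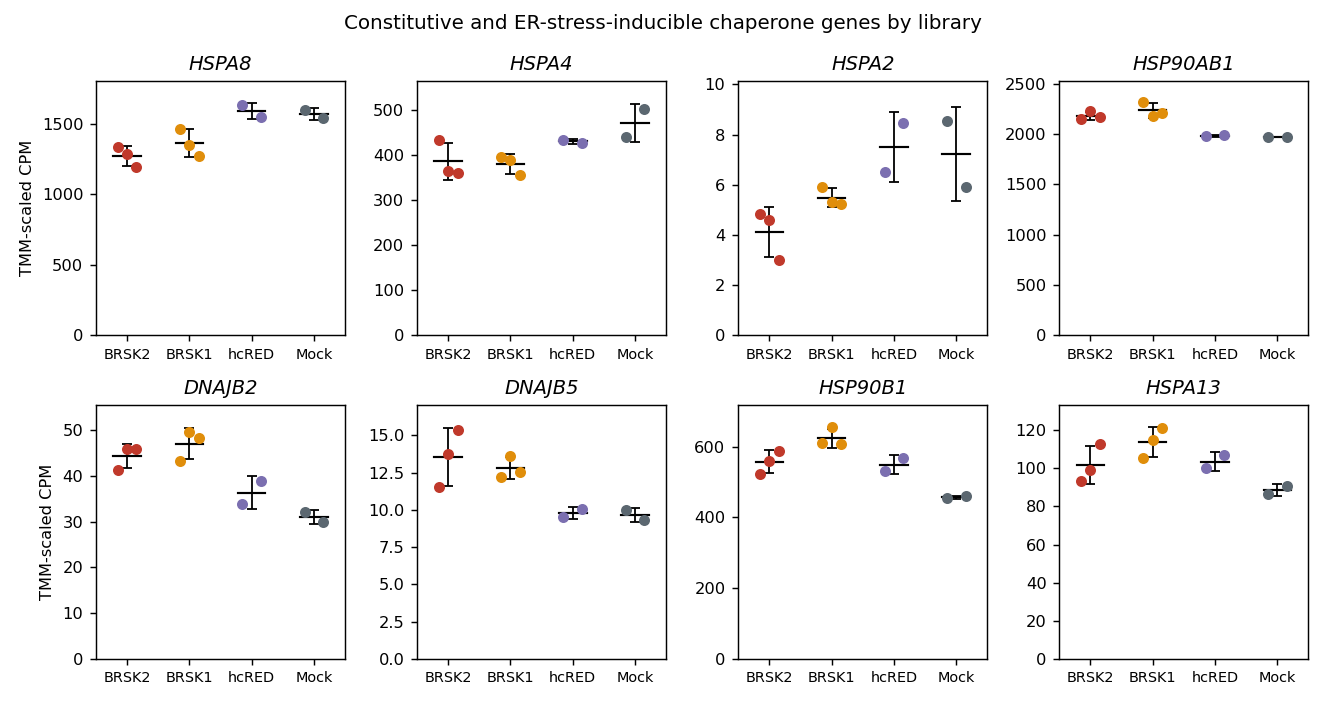
TMM-scaled CPM of 6 constitutive members and of the ER chaperone genes HSP90B1 and HSPA13 in each library, by group (points), with the group mean (horizontal line) and SD (bars). HSPA8 lies lower and DNAJB2 and DNAJB5 higher in all 6 kinase libraries than in the 4 controls.

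The remaining calls were small DNAJC and HSPA14 changes. DNAJC1, an ER membrane J-domain protein, had 59.9, 50.4 and 55.6 CPM in BRSK2, 47.4, 50.9 and 52.01 in BRSK1, 49.1 and 49.2 in hcRED and 40.2 and 44.0 in Mock libraries. The BRSK2 libraries stood above the controls, and DNAJC1 was higher there by 0.28 ± 0.07 (adjusted p = 0.0185), while the BRSK1 libraries overlapped hcRED (0.14 ± 0.07, adjusted p = 0.259). DNAJC8, a J-domain protein found with splicing factors, had 199.7, 234.3 and 215 CPM in BRSK2, 249, 237 and 245 in BRSK1, 256 and 248 in hcRED and 255 and 234.2 in Mock libraries. DNAJC8 was lower in BRSK2 libraries, at -0.20 ± 0.06 (adjusted p = 0.0449), with BRSK2 replicate 2 level with the lower Mock library. DNAJC5, the cysteine string protein of synaptic vesicles, had 189, 182 and 187 CPM in BRSK2, 170.4, 165 and 173 in BRSK1, 188 and 186 in hcRED and 196 and 209.8 in Mock libraries. The BRSK1 libraries lay below all others, and DNAJC5 was lower there, at -0.20 ± 0.05 (adjusted p = 0.0296). HSPA14, a ribosome-linked HSP70, has 2 overlapping entries on the same strand of chromosome 10, so that counts may be split between them, and CDNF overlaps the shorter on the opposite strand with a mean of 34.8 counts. The entry shorter in span, ENSG00000284024 (14838160 to 14847018, plus strand), has the larger deposited gene length, 8859 against 4818 bases. It had 64.8, 52.4 and 54.7 CPM in BRSK2 and 58.9, 55.1 and 52.9 in BRSK1 libraries. In hcRED libraries it had 65.5 and 70.7 CPM, and in Mock libraries 62.8 and 73.2. That entry was lower in BRSK1 libraries, at -0.29 ± 0.08 (adjusted p = 0.0271) and gave -0.25 ± 0.08 in BRSK2 libraries (adjusted p = 0.051), where 7 alternatives called it lower, among them DESeq2 and RLE factors (adjusted p = 0.0434 and 0.0485) and the fits without BRSK2 replicate 1 or Mock replicate 2 (adjusted p = 0.00348 and 0.0242), while the longer, ENSG00000187522, gave 0.19 ± 0.09 and 0.20 ± 0.09 (adjusted p = 0.188 and 0.162).

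These 4 calls rested on few libraries. Against hcRED alone DNAJC1 gave 0.17 in BRSK2 libraries (adjusted p = 0.312) and DNAJC5 gave -0.14 in BRSK1 libraries (adjusted p = 0.314), and with library totals alone DNAJC1 gave 0.18 (adjusted p = 0.0945). DNAJC8 and the shorter HSPA14 entry were lost against either control alone (adjusted p = 0.0899 and 0.133 against hcRED, 0.15 and 0.0559 against Mock). Leaving out 1 library lost the call of DNAJC1 in 5 fits (without BRSK2 replicate 1 or 3, either hcRED library or Mock replicate 2; adjusted p from 0.056 to 0.095) and that of DNAJC8 in 7 (without BRSK1 replicate 1 or 3, BRSK2 replicate 1 or 3, either hcRED library or Mock replicate 2; adjusted p from 0.0555 to 0.177). It lost that of DNAJC5 in 6 (without any BRSK1 library, either hcRED library or Mock replicate 3; adjusted p from 0.0674 to 0.112) and that of HSPA14 in 5 (without BRSK1 replicate 2 or 3, either hcRED library or Mock replicate 3; adjusted p from 0.0582 to 0.163).

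HSP90AB1, the constitutive cytosolic HSP90 and the most abundant member, had 2153, 2227 and 2169.7 CPM in BRSK2, 2323, 2183 and 2205 in BRSK1, 1977 and 1986 in hcRED and 1975 and 1969 in Mock libraries. All 6 kinase libraries stood above all 4 controls. Its values, 0.14 ± 0.06 in BRSK2 libraries (adjusted p = 0.147) and 0.18 ± 0.06 in BRSK1 libraries (adjusted p = 0.0758), did not pass edgeR's quasi-likelihood test, while DESeq2 called both (adjusted p = 0.018 and 0.00237). In the authors' deposited table for BRSK1, HSP90AB1 is listed as higher by 0.18 (adjusted p = 0.0323). HSPA9, the mitochondrial HSP70, gave -0.10 ± 0.06 and -0.09 ± 0.06 (adjusted p = 0.342 and 0.442). Of the 7 mitochondrial members tested, 0 passed with either kinase by edgeR's quasi-likelihood test, an unadjusted p under 0.05 or DESeq2. By edgeR's test 7.82% and 6.43% of all genes passed with BRSK2 and BRSK1, so a count of 0 among 7 says little about these members. Libraries did not overlap the controls for 11 of 66 members in BRSK2 libraries (4 higher, 7 lower), where 17.3% of all genes did not (9.09% higher, 8.2% lower). They did not for 17 in BRSK1 libraries (10 higher, 7 lower), where 18.4% of all genes did not (9.93% higher, 8.44% lower). BRSK2 and BRSK1 libraries did not overlap for 11 members (4 higher, 7 lower in BRSK2), where 17.7% of all genes did not (8.65% higher, 9.02% lower).

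hcRED against Mock, a comparison of the controls, gave 0 calls among the members by edgeR's quasi-likelihood test, where 0.0295% of all genes passed (0.0059% higher, 0.0236% lower). At an unadjusted p under 0.05 there were 13, a count with no share over all genes to set it against. DESeq2 called 1 member, HSP90B1 (0.26, adjusted p = 0.0493), among 49 of 8860 genes. In this comparison 26 members had libraries that did not overlap (17 higher, 9 lower), where 40.3% of all genes did not (20% higher, 20.3% lower).

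The authors' deposited table for BRSK2 lists 723 genes with an adjusted p under 0.05, 5 of them members: DNAJB2 and DNAJB5 as higher and DNAJA1, HSPA8 and HSPA2 as lower. The authors' deposited table for BRSK1 lists 879 genes, 8 of them members: HSPA6, HSP90B1, HSP90AB1, DNAJB2 and DNAJB5 as higher and DNAJA1, HSPA8 and HSPA4 as lower. HSPA6 is listed there at 2.73 (adjusted p = 0.0119).

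Among 59 other genes of chaperone pathways (heat shock factors, HSP70 and HSP90 co-chaperones, chaperonins and other inducible genes), 58 could be tested, and 0 rose and 3 fell in BRSK2 libraries, against 7.82% of all genes called. The 3 were HSBP1, which binds heat shock factors (-0.26 ± 0.06, adjusted p = 0.00905), and, from the list of HSP90 co-chaperones, PTGES3 (p23; -0.22 ± 0.06, adjusted p = 0.0168) and CACYBP (-0.22 ± 0.06, adjusted p = 0.0219). In BRSK1 libraries 2 rose and 3 fell, against 6.43%. HSF2, a heat shock factor, was higher by 0.28 ± 0.08 (adjusted p = 0.0352), as was SERPINH1, the ER chaperone of collagen, by 0.32 ± 0.06 (adjusted p = 0.00274). BAG1 and BAG5, nucleotide exchange factors of HSP70, gave -0.22 ± 0.06 and -0.25 ± 0.07 (adjusted p = 0.0349 and 0.031). HSF1, the main heat shock factor, averaged 134 ± 3.99 CPM in BRSK2, 118 ± 10.9 in BRSK1, 119 ± 5.85 in hcRED and 133 ± 4.61 in Mock libraries (SD, n = 3, 3, 2 and 2), and gave 0.09 ± 0.06 and -0.09 ± 0.06 (adjusted p = 0.4 and 0.408) for the BRSK2 and BRSK1 libraries against controls. None of the 58 passed between BRSK2 and BRSK1 or between hcRED and Mock by edgeR's quasi-likelihood test. Of all genes 0.348% and 0.0295% passed there. Of the 58, 12 and 5 had an unadjusted p under 0.05 in these comparisons.

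The counts of members called depended on single libraries. Without BRSK2 replicate 3, BRSK2 libraries had 2 in place of 10 called members (346 in place of 1325 of all genes), and they had 5 when hcRED replicate 1 and 6 when hcRED replicate 3 was left out (647 and 800 of all genes). In place of 10, BRSK1 libraries had 4 without BRSK1 replicate 2, 3 without BRSK1 replicate 3 or with hcRED replicate 1 left out, and 5 when hcRED replicate 3 or Mock replicate 3 was left out. Over all genes these counts were 415, 204, 314, 654 and 585 in place of 1089. Of the 22 calls over the comparisons, 6 were kept in each fit that left out 1 library: those of DNAJB2 with either kinase, DNAJA1 with BRSK2, HSP90B1 and HSPA6 with BRSK1, and HSPA6 between BRSK2 and BRSK1.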

How the data were processed

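RNA-seq read counts of 10 HEK293T libraries were analysed: 3 BRSK2, 3 BRSK1, 2 hcRED and 2 Mock, grouped by the genotype in the labels, with replicate numbers from the titles; 3 µg of RNA per sample was sequenced, per the labels' protocols. STAR, edgeR, limma and the build hg38 are named in the submitters' processing notes; which program counted reads, with which strand setting and annotation, is not given in the sources used here. Raw counts were deposited by the authors in 1 table per kinase, each with the same 4 control libraries. Control columns held identical values (0 genes differed), and joining both tables by gene ID left 0 unused count columns. The authors also deposited log2 CPM values for their listed genes, used only as a check (r = 1.0 with log2 CPM from the counts in every library). The authors' deposited tables of results give log2 fold changes, p-values and limma's scores, which are named so per the file headers; the scores were not used.

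Counts were tested with edgeR 4.0.16 in R 4.3.3: TMM factors, filterByExpr (minimum count 10, minimum total 15), and the robust quasi-likelihood test in 1 fit of 4 group means over 10 libraries. Each kinase was set against the average of both control groups, the kinases against each other, and hcRED against Mock. Benjamini-Hochberg adjustment covered 16936 genes, with a threshold of 0.05. Counts at an unadjusted p under 0.05 have no share over all genes beside them, so they cannot be read as high or low. SEs were derived from the fold change and the F statistic. Precision is set by depth (16516116 to 24304302 counts) and by a biological coefficient of variation of 8.06%. TPM used the deposited gene lengths, and mean levels by class used log2 CPM with a prior count of 2. The tests were checked on simulated counts. The members, classes and other lists were chosen with earlier results of these data known. Named genes are those called in any comparison, all heat- and ER-stress-inducible members, and the main constitutive member of each family; of other pathway genes, HSF1, HSF2 and those called, of which 1 is counted but not reported by name here. Alternatives were RLE factors, library totals alone, no low-count filter, DESeq2 1.42.0, each control alone, a replicate block, each library left out, and a narrow list of 8 heat-inducible genes. Same-numbered libraries did not all deviate together (r from -0.147 to 0.394), and the main fit did not pair them. An r over 0.1 was more frequent among same-number pairs (8 of 12) than among others (7 of 25), so a partial pairing may be missed.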

Additional observations from a re-analysis of the deposited data

Results flagged for a closer look

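HSPA6 and DNAJB1 were the chaperone genes whose levels differed between the kinases themselves, by edgeR's quasi-likelihood test on BRSK2 against BRSK1 libraries. HSPA6, the stress-inducible HSP70, stood at -3.60 on the log2 scale in BRSK2 relative to BRSK1 libraries (adjusted p = 0.000944), with all 3 BRSK2 libraries below all 3 BRSK1 libraries. DNAJB1, a J-domain partner of inducible HSP70, stood at -0.37 (adjusted p = 0.0121), again with all 3 BRSK2 libraries below all 3 BRSK1 libraries. By the same test its call was lost without BRSK2 replicate 3, BRSK1 replicate 1 or BRSK1 replicate 3 (adjusted p = 0.111, 0.0598 and 0.0684). DNAJB1 also overlaps TECR on the opposite strand. Libraries of the kinases did not overlap for 17.7% of all genes.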

How the results depend on the processing

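DNAJA1 in BRSK2 libraries and HSPA6 between BRSK2 and BRSK1 kept their calls under every alternative that gave an adjusted p. With library totals alone the BRSK2 libraries had 17 called members (2 higher, 15 lower) and 3001 called genes in all, with the median of all genes at -0.10. Against hcRED alone 5 members passed in BRSK2 and 1 in BRSK1 libraries, among 606 and 133 of all genes. DESeq2 called 1 member between BRSK2 and BRSK1 (36 had an adjusted p), among 189 of 6250 genes. It called 1 in hcRED against Mock, among 49 of 8860 genes. No filter on low counts also gave 1 there, among 128 of 33654 genes. With the replicate block the counts were 15 in BRSK2 libraries, 11 in BRSK1 libraries, 2 between them and 4 in hcRED against Mock. Of all genes 2153, 1999, 267 and 434 then passed, in place of 1325, 1089, 59 and 5. In hcRED against Mock the block called HSPA6, HSP90B1 and BAG3 as higher and HSPA1B as lower (adjusted p = 0.000122, 0.0128, 0.0394 and 0.00692). In BRSK2 libraries it called HSPA4L and the shorter HSPA14 entry (adjusted p = 0.034 and 0.0208) and HSP90B1 (adjusted p = 0.0316). An r over 0.1 was found in 8 of 12 same-number pairs of libraries and in 7 of 25 others, a larger share of the same-number pairs. Between the kinases, 1 of 3 BRSK2 libraries correlated best with its own number in BRSK1. The main fit took no account of the numbers, and the labels do not say whether same-numbered libraries belong together. Leaving out 1 kinase library gave 2 to 14 called members in BRSK2 libraries, 3 to 11 in BRSK1 libraries, 1 to 2 between them and 0 to 1 in hcRED against Mock. Over all genes these counts were 346 to 2211, 204 to 1751, 7 to 60 and 2 to 49. The heat-inducible less constitutive level was -0.15 in BRSK2 and 0.22 in BRSK1 libraries against controls, -0.37 between them and 0.28 in hcRED against Mock. With the narrow list of 8 genes it was -0.22 in BRSK2 and 0.40 in BRSK1 libraries, -0.62 between the kinases and 0.45 in hcRED against Mock. The narrow list still holds HSPA6, which weighs more among 8 genes than among 14. With the list of 14 less HSPA6, an alternative chosen after seeing the data, the level was -0.085, 0.045, -0.13 and 0.089 for these 4. With all 14 genes it was -0.29 in BRSK2 and 0.080 in BRSK1 libraries against hcRED alone, and -0.0079 and 0.36 against Mock alone. Leaving out 1 library gave 0.17 to 0.38 in hcRED against Mock. The cause was not tested. Over single members, 96 values lost and 45 gained a call among the alternatives and 4013 stayed on their side of the threshold; a change of sign in a value that passed in neither fit was not counted. HSPA6 rests on as few as 3 counts per library, which limits its fold change.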
